A study of Homo sapiens with 6 samples.

Results

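Splicing factors and RNA helicases were examined here as the rows of an mRNA expression table whose gene symbol starts with HNRNP, SRSF, SF3, SNRP, PRPF, DDX, DHX, RBM or LSM. The prefixes picked out 131 of the 8529 genes of the table, in 9 families: 17 HNRNP, 9 SRSF, 9 SF3, 11 SNRP, 11 PRPF, 29 DDX, 11 DHX, 23 RBM and 11 LSM genes. The rule uses the names of the genes and no measured value, although the members were chosen with earlier results of these data known.

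The cells were SW480, an established line from a human colorectal adenocarcinoma, labelled as wild type and grown in L-15 medium with fetal bovine serum. They spent 72 h on a hydrogel, soft (2 kPa) or stiff (25 kPa), and RNA of 3 libraries at each stiffness was sequenced to ask how the stiffness of the matrix alters gene expression. The sequenced series is thus limited to a single cell line, and the labels do not say whether the 3 libraries of a stiffness came from separate cultures beyond being run in triplicate, so that the p-values measure only the spread between these libraries, which may be technical. Values are FPKM, fragments normalised to transcript length and to the mapped fragments of the library, a unit per length that is meant for comparing levels between genes; the number of reads behind a value is unknown, and the sources do not fully state how the table was made. In cultured cells measured in bulk, fewer cells of a kind and less RNA per cell cannot be told apart.

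Splicing removes introns in the spliceosome, which is built from the U1, U2, U4, U5 and U6 small nuclear ribonucleoproteins (snRNPs). Most snRNAs carry a ring of Sm proteins, whereas U6 snRNA carries a ring of the related LSm proteins. SF3 proteins are subunits of the U2 snRNP that hold the branch site, and PRPF proteins belong mainly to the U4/U6.U5 tri-snRNP and the catalytic spliceosome. SR proteins (SRSF) bind exons and promote their inclusion, while hnRNP proteins often act against them. The DEAD-box (DDX) and DEAH-box (DHX) helicases use ATP to remodel RNA and its proteins in splicing, ribosome assembly, export, translation and decay. The RBM genes share only an RNA-binding domain and have many roles. Colorectal tumour cells, like other dividing cells, depend on this machinery, and SR and hnRNP proteins are known to be altered in many tumours.

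The label of the cells was checked against marker genes. Of 12 colorectal epithelial markers 9 were found, with a summed level between 3697 and 4872 FPKM in the 6 libraries, most of it from the keratins KRT18 and KRT19. The intestinal markers KRT20, CDX1 and CDX2 were under 1 FPKM in every library, so the check rests on general epithelial genes. Of the 9 markers 7 had a fold change below 0, among them CDX2 (0.677 and 0.217 FPKM at 2 kPa and 25 kPa, unadjusted p = 0.00370) and ELF3 (12.6 and 7.33 FPKM, unadjusted p = 0.0156); the part of this in the values of the splicing genes was not tested. The 3 fibroblast markers in the table summed to at most 1.11 FPKM, and the 3 immune markers to at most 5.47 FPKM. Libraries of the same stiffness correlated with coefficients between 0.974 and 0.988 over all genes. The summed FPKM of all genes differed between libraries, from 201030 in 2 kPa replicate 2 to 263028 in 25 kPa replicate 2.

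The splicing and helicase genes were on balance slightly higher at 25 kPa, without a gene that passed correction for all genes tested. The median log2 fold change (25 kPa minus 2 kPa, on the log2(FPKM + 1) scale) was 0.16 over the 131 genes and 0.05 over all 8529 genes. The 2 sets differ in level, with a median of 7.53 FPKM against 2.61 FPKM. At a mean FPKM of at least 1, the median fold change was 0.20 over 107 of the 131 and 0.08 over 5808 genes. In that setting 15.9% and 8.49% were higher at an unadjusted p under 0.05 with limma. The part of level in the difference was not tested further. The fold change was above 0 in 100 of the 131 genes (76.3%), against 5081 of all genes (59.6%), and ranged from −0.42 for SRSF8 to 0.69 for LSM3. With limma and Benjamini-Hochberg adjustment over all genes, 0 of the 131 had an adjusted p under 0.05 against 0.117% of all genes, and the smallest adjusted p was 0.244, for LSM3. At an unadjusted p under 0.05, 19 genes (14.5%) were higher at 25 kPa and 1 gene (0.763%) was lower, where the background over all genes was 6.96% higher and 3.19% lower. The 2 kPa and 25 kPa libraries did not overlap in 29 genes that were higher at 25 kPa (22.1%; 11.2% of all genes) and in 2 that were lower (1.53%; 4.78% of all genes). The 2 lower genes were SRSF8 and SF3B2. With 3 libraries against 3, the exact permutation test of a single gene cannot go below p = 0.1, so a lack of overlap is not significant by itself.

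These counts rested on the scaling and on single libraries. When every library was scaled to the same summed FPKM, 7 of the 131 genes were higher and 4 lower at an unadjusted p under 0.05, so that 63.6% of the calls were higher in place of 95.0%; over all genes the share moved from 68.6% to 42.7%. The corresponding background was 3.48% higher and 4.67% lower. With the trend over GC content removed from each library, a choice made after the data were seen, 11 were higher (8.40%) and 2 lower (1.53%), which made 84.6% of the calls higher; of all genes 4.70% were higher and 4.75% lower, so that 49.7% of the calls were higher. Without 25 kPa replicate 3 there were 9 genes higher (6.87%), and without 25 kPa replicate 1 there were 12 (9.16%), where 5.02% of all genes were higher in either setting. The count of lower genes was 0 without 25 kPa replicate 1, where 2.27% of all genes were lower. It was 2 without 2 kPa replicate 2, 2 kPa replicate 3 or 25 kPa replicate 2 (2.77%, 3.51% and 3.39% of all genes). Without 25 kPa replicate 2, 47 genes (35.9%) were higher and 7 (5.34%) lower without overlap, against 21.2% and 8.93% of all genes. The lower count was 5 (3.82%; 8.31% of all genes) without 2 kPa replicate 1 and 6 (4.58%; 10.2% of all genes) without 2 kPa replicate 3. The median over the 131 genes stayed above that of all genes in every setting tried, between 0.08 and 0.23.

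**Figure D1:**
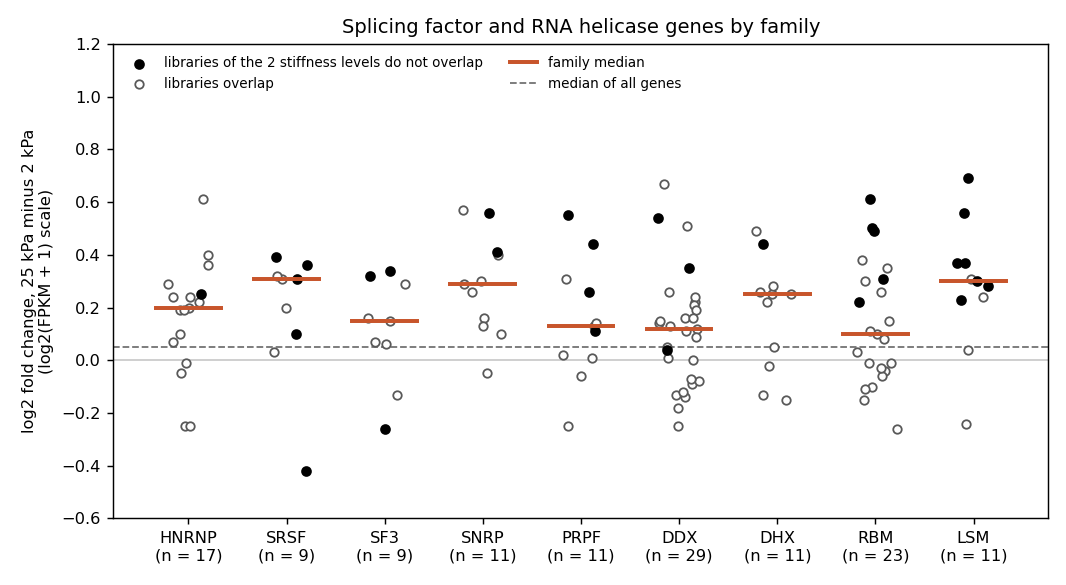
Log2 fold change (25 kPa minus 2 kPa, log2(FPKM + 1) scale) of each of the 131 genes, by family on the x axis. Filled points mark genes whose 2 kPa and 25 kPa libraries do not overlap, bars mark the family medians, which run from 0.10 (RBM) to 0.31 (SRSF), and the dashed line is the median of all genes (0.05).

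Counts by family or role below are to be read against the same shares over all genes, 6.96% higher and 3.19% lower at an unadjusted p under 0.05 and 11.2% and 4.78% without overlap; groups of 4 to 29 genes give coarse shares. By family, the median log2 fold change was 0.31 for SRSF, 0.30 for LSM, 0.29 for SNRP, 0.25 for DHX, 0.20 for HNRNP, 0.15 for SF3, 0.13 for PRPF, 0.12 for DDX and 0.10 for RBM. The LSM, SNRP and SRSF medians were at least 0.17 in every setting tried. The RBM median was −0.01 with equal library sums and −0.02 with the GC trend removed, and the SF3 median was −0.01 without 2 kPa replicate 3. Leaving out 2 kPa replicate 3 also took the HNRNP median from 0.20 to 0.04 and the DDX median from 0.12 to 0.05. The DHX median went from 0.25 to 0.15 in that setting. With equal library sums the DDX and PRPF medians were each 0.01 and the DHX median was 0.14, where that of all genes was −0.02. With the GC trend removed the DDX median was 0.01 and the DHX median 0.09, where that of all genes was −0.00. In the plot of family medians by library, the 25 kPa libraries lay above all 2 kPa libraries for the LSM family, with 0.25 to 0.33 at 25 kPa against −0.15 to 0.11 at 2 kPa. The same held for the SRSF family, with 0.08 to 0.33 against −0.04 to 0.03. In the other 7 families the libraries of the 2 stiffness levels overlapped on this measure, the difference from the 2 kPa mean. The plain medians of log2(FPKM + 1) did not overlap for SNRP, PRPF and DHX, so the reading by family depends on the measure. Over all 131 genes the library medians of this difference were −0.05 to 0.06 at 2 kPa and 0.08 to 0.26 at 25 kPa, which did not overlap. Over all genes they were −0.05 to 0.06 and 0.02 to 0.07, which did. The plain medians of log2(FPKM + 1) over the 131 genes overlapped, with 3.08, 3.27 and 2.77 at 2 kPa and 3.29, 3.10 and 3.33 at 25 kPa. So did the share of the 131 genes in the summed FPKM, with 1.25%, 1.34% and 1.12% at 2 kPa and 1.38%, 1.16% and 1.36% at 25 kPa.

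**Figure D2:**
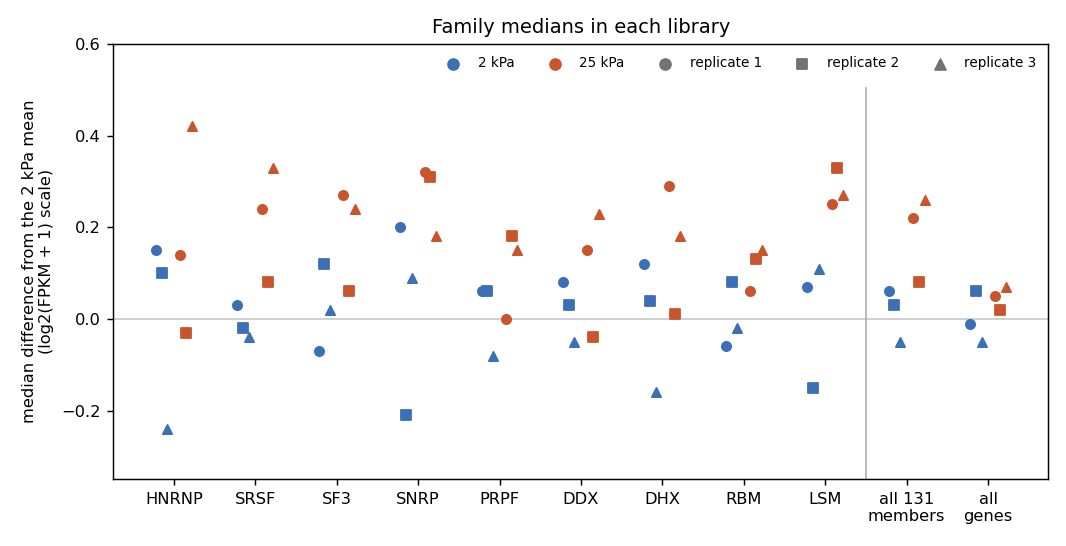
Median over the genes of a family of the difference from the 2 kPa mean (log2(FPKM + 1) scale, y axis) in each of the 6 libraries, with all 131 genes and all genes of the table at the right. Blue is 2 kPa, orange is 25 kPa, and the shape gives the replicate; in the SRSF and LSM families, and over the 131 genes, every orange point lies above every blue one.

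The 2 kPa libraries did not behave alike. Of the 131 genes, 61 had their lowest 2 kPa value in replicate 3 and 43 in replicate 2. Over all 8529 genes these counts were 3828 and 2198, so replicate 3 was most often the lowest in the whole table too. Replicate 2 was the lowest in 8 of 11 SNRP and 7 of 11 LSM genes, and replicate 3 in 13 of 17 HNRNP and 16 of 29 DDX genes. These patterns ran with an annotated transcript length, found for all 131 genes. It is the median over the protein-coding transcripts of a gene in the GRCh38 annotation. This median need not be the length of the transcript expressed here: SF3B1 was given 723 nt and LSM3 3815 nt. For each gene, the deviation from its mean at the stiffness of the library was taken. Across the 131 genes, Spearman's rho of this deviation with length was 0.29 in 2 kPa replicate 2 and −0.33 in 2 kPa replicate 3. At 25 kPa it was −0.31 in replicate 2 and 0.34 in replicate 3. Over 8183 genes of the table the same libraries gave 0.28, −0.25, −0.23 and 0.17, in the same order. The rho of the fold change itself was −0.09 with length and −0.24 with GC content over the 131 genes, and −0.02 and −0.35 over 8183 genes. Genes of one library share its depth and base composition, so these values are descriptions. The 65 shorter genes, of 491 to 1725 nt by this annotated median, held 13 of the 19 genes higher at an unadjusted p under 0.05. The 66 longer ones, of 1735 to 8726 nt, held 6. The median log2 fold changes were 0.16 and 0.18. The part of length and GC content in the differences was not tested beyond removing each trend.

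Markers of dividing cells were examined beside these genes. Of 14 proliferation markers found, 12 had a fold change above 0, with a median of 0.49, 4 were higher at an unadjusted p under 0.05 (28.6%, against 6.96% of all genes) and 0 passed adjustment. FOXM1 (−0.44) and MCM4 (−0.08) had a fold change below 0. The summed level of the 14 markers was 303, 284 and 255 FPKM in the 2 kPa libraries and 418, 378 and 406 FPKM in the 25 kPa libraries. Their part in the values of the splicing genes was not tested.

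The LSm ring of U6 snRNA held the gene with the largest fold change, LSM3. All 7 subunits were in the table, and LSM3, LSM6 and LSM4 were higher at an unadjusted p under 0.05 (42.9%, against 6.96% of all genes). The libraries did not overlap in 5 (71.4%, against 11.2%), namely these and LSM5 and LSM8, and the median of the ring, 0.37, was the highest of the role groups. LSM3, which helps hold the 3′ end of U6 snRNA and also belongs to the cytoplasmic decay ring, had 55.10, 41.11 and 71.21 FPKM at 2 kPa and 83.05, 96.27 and 86.00 FPKM at 25 kPa. Every 25 kPa library was above every 2 kPa library. The means were 55.8 ± 15.1 and 88.4 ± 6.94 FPKM (SD, n = 3 each), and the log2 fold change was 0.69 ± 0.19 (SE) with an unadjusted limma p of 0.00515. LSM3 kept an unadjusted p under 0.05 in all 15 other settings, with a fold change between 0.49 and 0.88 and a smallest adjusted p of 0.159. LSM6 had 12.18, 8.39 and 14.77 FPKM at 2 kPa and 15.84, 18.76 and 17.94 FPKM at 25 kPa, a log2 fold change of 0.56 ± 0.19 (SE) with an unadjusted p of 0.0179. This p was above 0.05 without 25 kPa replicate 2 or replicate 3, with the GC trend removed and with median centring. LSM4 had 52.82, 37.99 and 51.37 FPKM against 64.25, 64.73 and 53.79 FPKM. For all 3 genes 2 kPa replicate 2 was the lowest library.

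The other subunits of the ring were less uniform; LSM2, LSM4, LSM5, LSM7 and LSM8 were named after their values were seen. LSM2 had 36.45, 25.16 and 39.21 FPKM at 2 kPa and 39.50, 46.55 and 37.59 FPKM at 25 kPa, which overlap. LSM8, the subunit that marks the nuclear ring, was at 2.26, 1.83 and 2.24 FPKM against 2.99, 2.71 and 3.37 FPKM. LSM7 was the only member of the family with a fold change below 0 (−0.24 ± 0.28, SE), from 1.67, 1.64 and 2.53 FPKM to 1.59, 2.31 and 0.77 FPKM. LSM5 was listed at 0.07 to 0.54 FPKM in the 6 libraries. LSM1, which takes the place of LSM8 in the cytoplasmic ring that promotes decapping of mRNA, had 19.33, 15.54 and 19.57 FPKM against 21.68, 22.93 and 22.66 FPKM, a log2 fold change of 0.30 ± 0.13 (SE) with an unadjusted p of 0.0449, which stayed under 0.05 in only 1 of 15 other settings. LSM10, a subunit of the U7 snRNP that processes histone mRNA, had 11.19, 12.94 and 10.19 FPKM against 13.52, 14.76 and 13.80 FPKM (0.28 ± 0.14, unadjusted p = 0.0727). Neither gene's libraries overlapped.

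**Figure D3:**
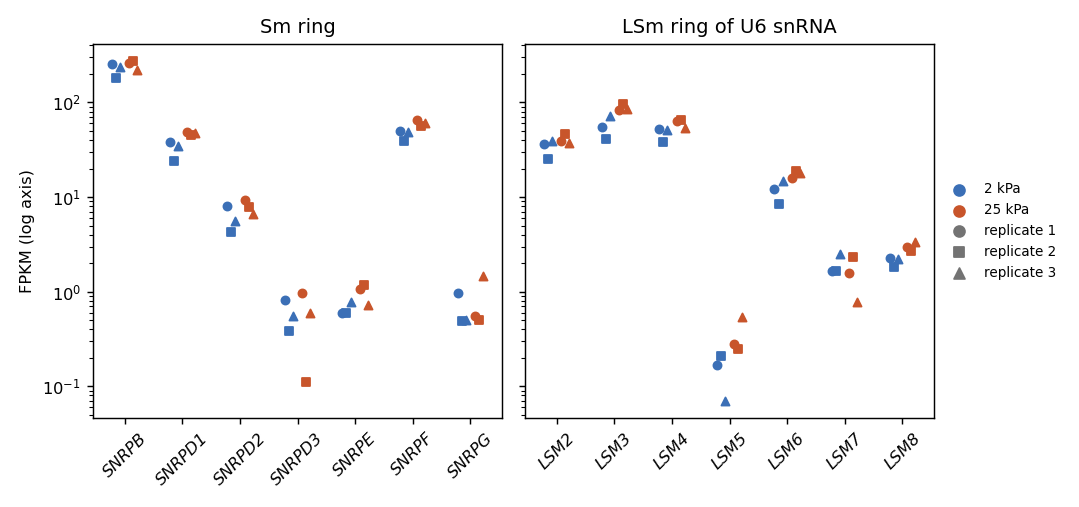
FPKM (log axis) of the 7 Sm genes and the 7 LSm genes in each library. Blue is 2 kPa, orange is 25 kPa, and the shape gives the replicate; within a ring the genes range from values under 1 FPKM to 200 FPKM and more for SNRPB, a spread far larger than any difference between stiffness levels.

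Of the Sm ring 7 genes were in the table, 6 with a fold change above 0 and a median of 0.26. SNRPD1 and SNRPF were higher without overlap. SNRPD1 had 38.32, 23.97 and 34.31 FPKM at 2 kPa and a narrow 48.38, 45.58 and 47.00 FPKM at 25 kPa. Its means were 32.2 ± 7.40 and 47.0 ± 1.40 FPKM (SD, n = 3 each) and its log2 fold change was 0.56 ± 0.17 (SE; unadjusted p = 0.00888, adjusted p = 0.296 with limma). SNRPF had 49.29, 39.01 and 48.58 FPKM against 64.78, 56.54 and 60.81 FPKM, a log2 fold change of 0.41 ± 0.13 (SE; unadjusted p = 0.0102). With the GC trend removed, both had an unadjusted p above 0.05, as had SNRPF with median centring. SNRPB, which encodes the subunits SmB and SmB′, was the highest of the snRNP genes at 256.80, 182.49 and 238.07 FPKM against 261.05, 273.99 and 218.92 FPKM, and these libraries overlapped. At the other end, SNRPD3, SNRPE and SNRPG, named after their values were seen, were listed between 0.11 and 1.45 FPKM in every library, although the ring takes each subunit once. The low values of these and of the other members under 1 FPKM (24 of 131 by their mean) were therefore not read as low expression.

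The proteins of the U1 and U2 snRNPs followed a mixed course. SNRPA1, the U2 protein A′, had 25.24, 20.90 and 18.95 FPKM at 2 kPa and 39.89, 24.40 and 35.38 FPKM at 25 kPa. The 25 kPa replicate 2 lay within the 2 kPa range, and the log2 fold change was 0.57 ± 0.19 (SE; unadjusted p = 0.0150), with a p above 0.05 in 3 of 15 other settings, equal library sums among them. SNRPC, a U1 protein that helps recognise the 5′ splice site, was at 56.55, 39.20 and 53.19 FPKM against 54.62, 67.86 and 58.70 FPKM with overlap. PRPF39, a U1-associated factor, had 2.92, 2.49 and 2.10 FPKM against 3.60, 4.28 and 4.44 FPKM, without overlap (0.55 ± 0.21, unadjusted p = 0.0292, under 0.05 in 9 of 15 other settings).

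Among the SF3 subunits, SF3B6, which touches the branch-point adenosine, was the gene with a p under 0.05. It had 90.00, 79.88 and 116.28 FPKM at 2 kPa and 118.02, 124.49 and 116.32 FPKM at 25 kPa, so that the lowest 25 kPa library lay only just above the highest 2 kPa library. The log2 fold change was 0.34 ± 0.15 (SE; unadjusted p = 0.0467) and kept a p under 0.05 in only 3 of 15 settings. SF3B5, the highest of the family, was at 133.18, 103.75 and 134.53 FPKM against 99.17, 132.42 and 106.73 FPKM (−0.13 ± 0.15). SF3B2, named after its values were seen, was lower without overlap at 0.84, 0.50 and 0.69 FPKM against 0.34, 0.49 and 0.36 FPKM (−0.26 ± 0.13, unadjusted p = 0.0683). SF3A3, likewise listed under 1 FPKM and named after its values were seen, was higher without overlap (0.517 ± 0.179 against 0.883 ± 0.0950 FPKM, SD, n = 3 each). SF3B1, the subunit most often mutated in blood cancers, was at 6.18 ± 0.663 and 7.83 ± 1.33 FPKM (SD, n = 3 each), a log2 fold change of 0.29 with a 95% interval from −0.11 to 0.70; this gene was also named after its values were seen.

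The PRPF genes of the tri-snRNP and the catalytic steps showed 0 of 9 genes with an unadjusted p under 0.05. PRPF38A, PRPF38B and PRPF31, the last named after its values were seen, were higher without overlap, the first 2 at 7.13 ± 0.574 against 8.74 ± 0.728 FPKM and 1.66 ± 0.254 against 2.60 ± 0.324 FPKM (SD, n = 3 each). PRPF19, a ubiquitin ligase of the active spliceosome and the highest of the family, was nearly level at 87.94, 91.39 and 82.47 FPKM against 81.26, 92.81 and 89.93 FPKM. Its log2 fold change was 0.01 with a 95% interval from −0.23 to 0.26. PRPF8, the centre of the spliceosome and named after its values were seen, varied most between replicates, with 39.02, 86.05 and 24.94 FPKM at 2 kPa and 57.89, 32.14 and 60.40 FPKM at 25 kPa. Its log2 fold change of 0.14 had a 95% interval from −0.79 to 1.07, too wide to tell a difference of either direction from none.

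The SR protein genes held 3 genes higher (33.3%, against 6.96% of all genes) and 1 lower (11.1%, against 3.19%) at an unadjusted p under 0.05, of 9. SRSF3, the highest, which regulates splicing, export and 3′ end choice, had 67.18, 53.57 and 62.88 FPKM at 2 kPa and 77.15, 73.03 and 77.12 FPKM at 25 kPa (0.31 ± 0.12, unadjusted p = 0.0272). SRSF7, a close relative, had 54.80, 42.05 and 42.95 FPKM against 55.54, 63.48 and 60.55 FPKM (0.36 ± 0.13, unadjusted p = 0.0224), with 25 kPa replicate 1 barely above 2 kPa replicate 1. SRSF2, also called SC35, had 15.21, 16.95 and 15.36 FPKM against 18.88, 19.18 and 25.65 FPKM (0.39 ± 0.15, unadjusted p = 0.0265). In all 3 genes every 25 kPa library was the higher, and each p was above 0.05 without at least 1 of the libraries and with equal library sums. Of 15 other settings the p stayed under 0.05 in 11 for SRSF2 and in 7 each for SRSF3 and SRSF7; those of SRSF3 and SRSF7 were also above it with median centring and with the GC trend removed. SRSF9, named after its values were seen, was also higher without overlap, by 0.10 ± 0.10 (SE).

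SRSF8, a gene without introns that is closely related to SRSF2, ran the other way. It had 10.67, 9.55 and 8.63 FPKM at 2 kPa and 6.33, 7.60 and 6.82 FPKM at 25 kPa, with every 25 kPa library below every 2 kPa library. The means were 9.62 ± 1.02 and 6.92 ± 0.640 FPKM (SD, n = 3 each), a log2 fold change of −0.42 ± 0.15 (SE; unadjusted p = 0.0238, adjusted p = 0.400 with limma). The direction held in all 15 other settings, from −0.56 to −0.35, and the unadjusted p was above 0.05 without 2 kPa replicate 1, 25 kPa replicate 1 or 25 kPa replicate 3. Within each library, SRSF2 exceeded SRSF8 by 0.47, 0.77 and 0.76 on the log2(FPKM + 1) scale at 2 kPa and by 1.44, 1.23 and 1.77 at 25 kPa. The difference between the means, 0.67 and 1.48, was 0.81 with an exact two-sided permutation p of 0.100, the smallest that 3 against 3 can give. The genes share sequence, so reads may have been divided between them in counting, and the pair was picked after its values were seen.

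**Figure D4:**
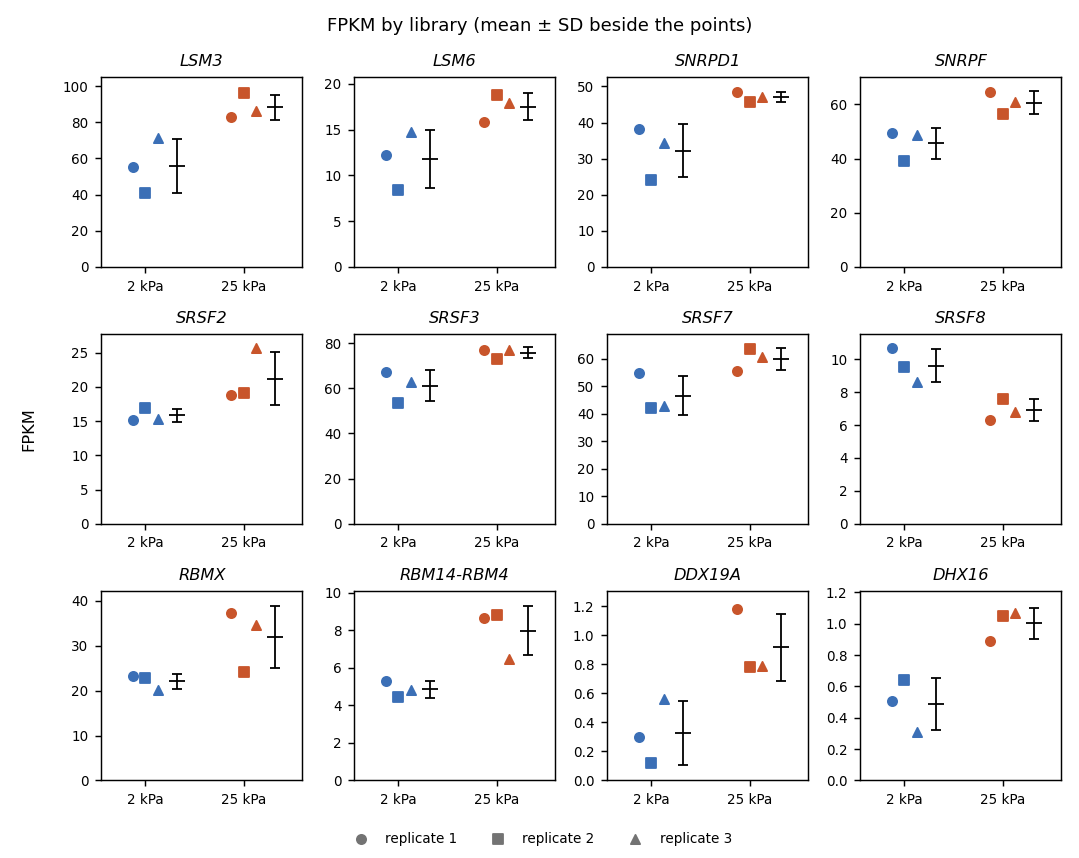
FPKM of 12 named genes in each library (y axes start at 0), with mean ± SD (n = 3) beside the points of each stiffness. Blue is 2 kPa, orange is 25 kPa; in all 12 panels the libraries of the 2 stiffness levels do not overlap, and SRSF8 is the gene that is lower at 25 kPa.

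The hnRNP genes included the highest level of all 131 genes, HNRNPA1, a splicing repressor that competes with SR proteins. It had 252.52, 191.69 and 189.83 FPKM at 2 kPa and 294.93, 236.16 and 282.33 FPKM at 25 kPa. The 25 kPa replicate 2 lay below 2 kPa replicate 1, and the log2 fold change was 0.36 ± 0.16 (SE; unadjusted p = 0.0492, adjusted p = 0.489 with limma). HNRNPA2B1 was at 46.59, 48.09 and 33.09 FPKM against 63.13, 45.46 and 60.30 FPKM (0.40 ± 0.18, unadjusted p = 0.0532). HNRNPA1 was the 1 gene of 17 with an unadjusted p under 0.05, and it kept it in 4 of 15 settings. HNRNPLL, which regulates splicing in lymphocytes and was named after its values were seen, was the 1 gene without overlap, at 9.39 ± 1.01 against 11.4 ± 0.896 FPKM (SD, n = 3 each).

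Among the spliceosome helicases, 1 of 8 genes (12.5%, against 6.96% of all genes) was higher at an unadjusted p under 0.05. This was DHX16, which remodels the spliceosome before the catalytic steps, at 0.51, 0.64 and 0.31 FPKM against 0.89, 1.05 and 1.07 FPKM. The log2 fold change on the log2(FPKM + 1) scale was 0.44 ± 0.15 (SE; unadjusted p = 0.0156), which understates the ratio of means of 2.06 at these low levels; the p was above 0.05 without 2 kPa replicate 3. DHX15, which takes the spliceosome apart after splicing, was at 41.84, 36.43 and 31.89 FPKM against 47.88, 36.28 and 47.33 FPKM with overlap. DHX9, a helicase of transcription and RNA export, was the highest DHX gene at 50.1 ± 4.95 and 60.4 ± 8.89 FPKM (SD, n = 3 each), a log2 fold change of 0.26 with a 95% interval from −0.06 to 0.57.

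The helicases of export, translation and decay likewise held 1 such gene of 8 (12.5%), DDX19A, which releases mRNA at the cytoplasmic side of the nuclear pore. It had 0.30, 0.12 and 0.56 FPKM at 2 kPa and 1.18, 0.78 and 0.79 FPKM at 25 kPa (0.54 ± 0.16, unadjusted p = 0.00889), without overlap and with a ratio of means of 2.81. Its near-identical paralog DDX19B had 2.00, 2.45 and 2.41 FPKM against 2.58, 1.31 and 2.19 FPKM, with overlap. DDX39A, an ATPase of mRNA export, had 1.47, 0.13 and 0.94 FPKM against 1.37, 2.41 and 1.70 FPKM (0.67 ± 0.30, unadjusted p = 0.0541), a fold change that was 0.35 without 2 kPa replicate 2. Its paralog DDX39B, at 24.9 ± 4.60 and 21.6 ± 1.01 FPKM (SD, n = 3 each), had a fold change of −0.18. Reads of either pair may have been divided between the copies, and DDX19B and DDX39B were named after their values were seen. DDX5, which acts in splicing and transcription, was the highest DDX gene, with 85.69, 76.27 and 69.31 FPKM against 91.45, 69.40 and 92.71 FPKM (0.12 ± 0.15).

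None of the 14 helicases of ribosome biogenesis had an unadjusted p under 0.05, and 11 had a fold change above 0, with a median of 0.12. The smallest p values were those of DDX49, at 0.40, 0.34 and 0.51 FPKM against 0.37, 1.52 and 1.37 FPKM, and DDX18, at 28.6 ± 2.95 against 34.3 ± 3.98 FPKM (SD, n = 3 each). DDX24, named after its values were seen, was the 1 gene of this group without overlap, by only 64.8 ± 0.944 against 66.7 ± 0.681 FPKM. DDX20, a partner of the SMN protein in loading Sm rings and named in the same way, was higher without overlap at 6.39 ± 0.591 against 8.44 ± 1.07 FPKM (0.35 ± 0.16, unadjusted p = 0.0624). The antiviral sensors DDX58, also called RIG-I, and DHX58 were listed at 1.32 and 1.40 FPKM and at 0.160 and 0.353 FPKM in the 2 groups' means, with unadjusted p of 0.814 and 0.0646. The mitochondrial DDX28 was at 6.10 ± 1.04 and 5.63 ± 0.261 FPKM (−0.09 ± 0.18).

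Among the RBM genes, 4 of 23 (17.4%) were higher at an unadjusted p under 0.05, against 6.96% of all genes. RBM14-RBM4, a readthrough gene that joins RBM14 to RBM4, had 5.31, 4.43 and 4.82 FPKM at 2 kPa and 8.65, 8.82 and 6.46 FPKM at 25 kPa (0.61 ± 0.18, unadjusted p = 0.00875), without overlap and with a p under 0.05 in all 15 other settings. RBM4 itself, a regulator of exon choice that is 1 of the partners in the readthrough, had 47.54, 40.12 and 50.21 FPKM against 39.81, 47.83 and 36.22 FPKM (−0.15 ± 0.14). Within each library RBM14-RBM4 lay 2.94, 2.92 and 3.14 log2 units below RBM4 at 2 kPa and 2.08, 2.31 and 2.32 below it at 25 kPa. The difference of 0.76 between the means, −3.00 and −2.24, had an exact two-sided permutation p of 0.100. Because the genes overlap and the counting could split reads between them, both levels are uncertain. RBM4B, the neighbouring paralog, was at 0.953 ± 0.448 and 1.46 ± 0.343 FPKM (SD, n = 3 each).

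RBMX, also called hnRNP G, which binds nascent transcripts and is known in splicing and genome stability, had 23.25, 22.80 and 20.20 FPKM at 2 kPa and 37.26, 24.24 and 34.67 FPKM at 25 kPa (0.50 ± 0.17, unadjusted p = 0.0157). The groups did not overlap, but 25 kPa replicate 2 lay close to the 2 kPa libraries, and the p was above 0.05 with equal library sums and without 25 kPa replicate 1 or replicate 3. RBMXL1, a copy of RBMX without introns, had 1.80, 1.90 and 1.85 FPKM against 3.35, 2.60 and 3.13 FPKM. The difference between RBMX and RBMXL1 within libraries averaged 3.02 at both stiffness levels (exact permutation p = 1.00). Reads of this pair, too, may have been divided between the copies, so RBMXL1 may not be a separate observation. Both are among the 4 RBM genes counted as higher at an unadjusted p under 0.05 with limma. RBMX2, a protein of the spliceosome, had 20.11, 19.56 and 22.60 FPKM against 26.28, 25.64 and 25.75 FPKM (0.31 ± 0.11, unadjusted p = 0.0221). RBM8A, the Y14 protein of the exon junction complex, was higher without overlap by 0.22 ± 0.11 (unadjusted p = 0.0722). RBM38, an RNA-binding protein of mRNA stability, had the lowest fold change of the family at −0.26 ± 0.19, from 0.583 ± 0.307 to 0.327 ± 0.279 FPKM (SD, n = 3 each). RBMXL1 and RBMX2 were named after their values were seen.

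**Figure D5:**
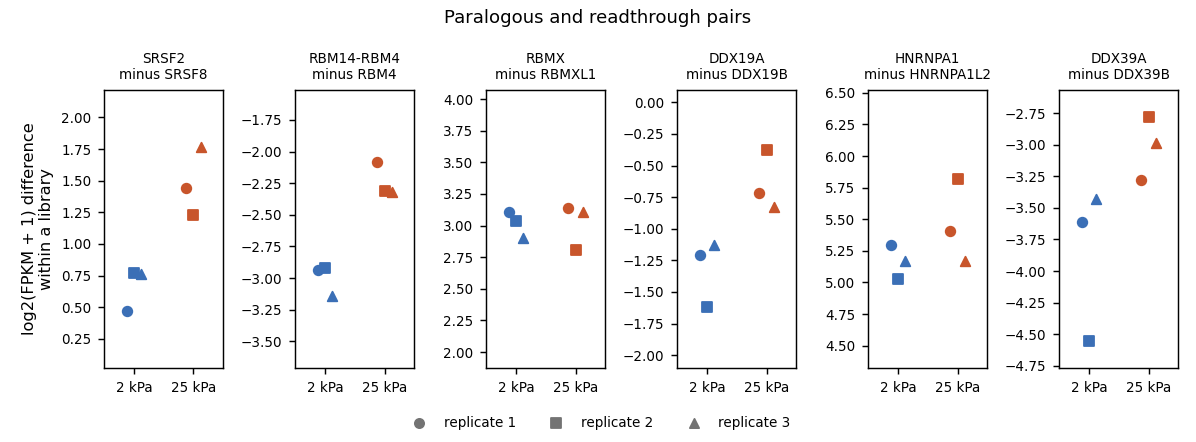
Difference in log2(FPKM + 1) between a gene and its paralog, or the readthrough gene and RBM4, within each library; each panel spans the same number of log2 units. Blue is 2 kPa, orange is 25 kPa; the libraries do not overlap in 4 of the 6 pairs, and RBMX minus RBMXL1 averages 3.02 at both stiffness levels.

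Of the 6 pairs in the plot of within-library differences, all chosen after their values were seen, DDX19A against DDX19B shifted by 0.68, DDX39A against DDX39B by 0.85 and HNRNPA1 against HNRNPA1L2 by 0.30. The exact permutation p was 0.100, 0.100 and 0.200. Adjusted over the 6 pairs by Benjamini-Hochberg, the smallest permutation p was 0.150, and none of the 6 could pass 0.05 in this design.

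Promoters of 5 of the genes without overlap are printed: 4 genes that were higher at 25 kPa and SRSF8, the gene of the opposite direction. These 5 were picked without a rule after their values were seen. LSM3, LSM6, SNRPD1 and SRSF2 had no usable promoter entry. The printed stretches are RefSeq sequences of GRCh38.p14, in the direction of transcription and 5′ to 3′, from the window around the start of each gene. The build named in the submitters' processing notes is hg18. Capitals mark CCAAT, its reverse complement ATTGG, and TATAAA. The stretches are chr6:36594153-36594352 (plus strand) for SRSF3, chr12:95858840-95858927 (plus) for SNRPF, chrX:136880765-136880964 (minus) for RBMX, chr11:66616382-66616581 (plus) for RBM14-RBM4 and chr11:95066677-95066876 (plus) for SRSF8.
SRSF3: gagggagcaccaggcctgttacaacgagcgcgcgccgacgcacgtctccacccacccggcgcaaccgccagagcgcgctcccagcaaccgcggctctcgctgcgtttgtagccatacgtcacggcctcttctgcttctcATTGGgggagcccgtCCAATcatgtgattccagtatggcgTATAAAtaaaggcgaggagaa
SNRPF: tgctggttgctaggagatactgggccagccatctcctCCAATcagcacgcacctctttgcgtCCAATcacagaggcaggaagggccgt
RBMX: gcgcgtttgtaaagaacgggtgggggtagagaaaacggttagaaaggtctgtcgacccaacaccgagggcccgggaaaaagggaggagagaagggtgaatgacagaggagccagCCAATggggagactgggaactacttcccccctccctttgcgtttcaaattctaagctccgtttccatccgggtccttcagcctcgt
RBM14-RBM4: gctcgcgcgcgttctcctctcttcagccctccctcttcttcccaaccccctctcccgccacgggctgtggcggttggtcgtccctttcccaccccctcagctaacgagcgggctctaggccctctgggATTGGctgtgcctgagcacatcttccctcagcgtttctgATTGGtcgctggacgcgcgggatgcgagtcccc
SRSF8: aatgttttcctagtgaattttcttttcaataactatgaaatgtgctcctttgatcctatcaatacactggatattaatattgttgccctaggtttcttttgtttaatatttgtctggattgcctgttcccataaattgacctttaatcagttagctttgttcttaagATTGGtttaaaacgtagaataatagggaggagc
SRSF3 has CCAAT boxes in both directions, starting at −70 and −55 from the start site, and TATAAA at −30. SNRPF has CCAAT at −75 and −50, RBMX at −125, RBM14-RBM4 has the reverse form at −120 and −81, and SRSF8 has it at −33.

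Over the whole windows and on both strands, with CCAAT and the other motifs searched separately, CCAAT or ATTGG was found in 51 of the 115 members with a promoter entry (44.3%), in 36.7% of 6454 genes of the table and in 35.7% of 27305 RefSeq promoters. It was in 16 of 24 members that were higher without overlap (66.7%) and in 35 of the 91 others (38.5%). The share among all genes of the table that were higher without overlap was not counted. Whether the 66.7% is particular to these members was therefore not tested. CCGGAAG or CTTCCGG was found in 35.7% of the members against 19.8% of the genes of the table, and in 37.5% and 35.2% of the same 2 groups of members. GGGCGG or CCGCCC was found in 57.4% of the members against 71.1%, and in 45.8% and 60.4% of these 2 groups. For TATAAA or TTTATA the shares were 7.83% against 6.00%, and 8.33% and 7.69%. A match describes the letters of the window and is not a site of binding.

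A list of 111 other splicing and helicase genes outside the prefixes, 75 of them in the table, was set beside the 131. It had 0 genes with an adjusted p under 0.05, 6 (8.00%) higher and 1 lower at an unadjusted p under 0.05, and a median of 0.12. The share of 8.00% is near the 6.96% of all genes. The count of 6 was 10 without 2 kPa replicate 2 or 25 kPa replicate 2 and 3 without 2 kPa replicate 3, 25 kPa replicate 1 or 25 kPa replicate 3. Named after their values were seen, the higher ones were NONO and SFPQ, partners in paraspeckles and splicing, SNRNP70 of the U1 snRNP, SNRNP40 of the U5 snRNP, CDC5L and PNN. SNRNP70 had means of 12.3 and 18.1 FPKM (0.52 ± 0.15, unadjusted p = 0.00843) and NONO of 6.55 and 9.80 FPKM (0.51 ± 0.15, unadjusted p = 0.00793). The lower one was PUF60, which helps recognise the 3′ splice site, with means of 7.44 and 4.06 FPKM (−0.83 ± 0.32, unadjusted p = 0.0276). Without overlap, 13 of the 75 were higher (17.3%, against 11.2% of all genes): 10 of the 38 other spliceosome proteins (26.3%), 3 of the 30 other splicing regulators (10.0%) and 0 of the 7 other helicases.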

How the data were processed

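SW480 cells kept for 72 h on 2 kPa or 25 kPa hydrogels gave 3 RNA libraries at each stiffness, and groups and replicate numbers were taken from the sample labels, with 0 columns left unassigned. The authors deposited FPKM per gene symbol and library, made after quality assessment and prediction of coding potential; the submitters' processing notes name HISAT, StringTie, Bowtie2, RSEM and hg18 without roles or order. Purification of small RNA is also part of the stated methods. The depth of the libraries is not known, and the precision rests on the spread between 3 libraries.

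From the deposited FPKM, log2(FPKM + 1) was fitted over all 8529 genes with limma 3.58.1 in R 4.3.3 (lmFit, eBayes with a trend, two-sided, 25 kPa minus 2 kPa) with Benjamini-Hochberg adjustment. The study's DESeq2 needs counts and was not run. No gene was left out for low values, and the lowest value was 0.01. A gene does not overlap when all 3 libraries of a stiffness lie above all 3 of the other. Within-library differences between paralogs were compared by exact permutation tests (scipy 1.17.1). The fit was tested on simulated data.

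The members, gene lists and tests were chosen with earlier results of these data known. Genes were named by rule: per family, the highest level and up to 2 per direction with the smallest p among those without overlap and an unadjusted p under 0.05, or else the smallest p, and up to 2 per role. Other names are marked. Alternatives were median centring, scaling to equal sums, quantile normalisation, a pseudocount of 0.1, a minimum mean FPKM of 1, a replicate block, no variance trend and leaving out each library. Removal of GC and length trends (lowess, span 0.3) was added after seeing the data. GC content and length were medians over the protein-coding transcripts of a gene in the GRCh38 annotation.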

Additional observations from a re-analysis of the deposited data

How the results depend on the processing

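No member had an adjusted p under 0.05 with limma in any of the 15 other settings, while at an unadjusted p under 0.05 there were 19 higher and 1 lower in the reported fit. The count of members higher at an unadjusted p under 0.05 was 11 with the GC trend removed (8.40%; 4.70% of all genes), 7 with equal library sums (5.34%; 3.48%) and 10 with median centring (7.63%; 4.57%), and 9 to 21 with a library left out (5.02% to 8.50% of all genes). The count lower was 2 with the GC or the length trend removed (1.53% each, against 4.75% and 5.39% of all genes). It was 4 with equal library sums (3.05%, against 4.67%) and 0 to 2 with a library left out (2.27% to 3.51% of all genes). Without overlap, 19 were higher with the GC trend removed (7.77% of all genes), 16 with equal library sums (5.33%) and 18 with the length trend removed (8.25%) or median centring (7.82%). With a library left out, 33 to 47 were higher (14.8% to 21.2% of all genes). Without overlap, 5 were lower with the GC or the length trend removed (3.82% each, against 7.69% and 7.86% of all genes). There were 6 with equal library sums (4.58%, against 7.79%) and 1 of 107 members with a mean FPKM of at least 1 (0.935%, against 5.22%). With a library left out, 2 to 7 were lower (7.22% to 10.2% of all genes). Of the list outside the prefixes, 6 genes were higher at an unadjusted p under 0.05, against 3 with the GC trend removed, 1 with equal library sums, 3 with median centring and 3 to 10 with a library left out. The cause of these changes was not tested; leaving out a library also lowers the number of values that must not overlap. Same-numbered libraries of the 2 stiffness levels had deviations that correlated with 0.115, −0.267 and −0.125, so the numbers were not taken to pair the samples. With the replicate block 14 members were higher and 1 lower (5.58% of all genes higher), and 3 genes of the list outside the prefixes were higher. Since the depth is unknown, the error of values under 1 FPKM is known only from the spread between libraries. Of the 38 named genes, LSM3, RBM14-RBM4 and DDX19A had an unadjusted p under 0.05 in every setting in which they were tested. DDX19A, at a mean of 0.622 FPKM, was tested in 14 of the 15, as the minimum mean FPKM of 1 left it out. PRPF19, DDX58, SNRPB and DDX28, none with an unadjusted p under 0.05, changed sign in some settings.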
